A study of Mus musculus with 6 samples.

Results

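The genes described here are the collagens, chosen as every row of the deposited gene table whose symbol has the form of a collagen alpha chain (Col, a type number, the letter a, a chain number). There were 42 such genes among 22956. RNA sequencing measured them in 6 aorta samples whose cell type label is smooth muscle cell, from mice of strain C57B6 that were 30 weeks old and had eaten a western diet for 20 weeks. The 3 wild-type samples (WT 1 to 3) have the genotype WT/mTmG/ Myh11ERT2. The 3 knockout samples (knockout 1 to 3, KO in the plots) have the genotype miR-21fl/flmTmG/Myh11ERT2 and are grouped by the labels as miR21 -/-. Both groups therefore carry mTmG, a reporter that changes colour where Cre has acted, and the inducible Cre driven by the Myh11 promoter, which is active in smooth muscle. Cells of other types in the aorta would keep miR-21 in such a model. The comparison asks which messages differ when smooth muscle is labelled as lacking miR-21, under the same feeding. No label says whether the 3 samples of a group are separate animals, so the p-values below reflect the spread among these samples alone, and that spread may be technical.

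Collagens are secreted proteins built from 3 chains wound into a triple helix, which needs a regular repeat of glycine along each chain. Fibrillar collagens form the tensile cables of the arterial wall, and network collagens form the sheets of the basement membrane that surrounds each smooth muscle cell. Fibril-associated collagens sit on the surface of fibrils. Smooth muscle cells and adventitial fibroblasts both make collagen in the aorta, and in atherosclerosis the collagen of the fibrous cap comes largely from smooth muscle. In bulk samples, fewer cells of a type and less RNA per cell cannot be told apart.

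By type number, 11 genes were fibrillar (types 1, 2, 3, 5, 11, 24 and 27), 9 network (types 4, 8 and 10), 9 fibril-associated (types 9, 12, 14, 16, 19, 20 and 22) and 13 of other kinds (types 6, 7, 15, 17, 18, 23, 25 and 28). In the principal GENCODE transcript of each gene, the longest unbroken run of triplets that start with a glycine codon (GGN) was 337 to 344 triplets in 9 fibrillar genes. It was 216 and 217 in Col24a1 and Col27a1, the other fibrillar genes. The run was at most 66 triplets in network, 113 in fibril-associated and 87 in other collagens. The following stretches of 27 bases are shown because they show what such a run is and how it breaks. They begin at codon 168 of Col1a1, where its run of 338 starts, and at codon 157 of Col4a1, shortly before its run of 40 ends. Capitals mark the glycine codons in the repeat, and in Col4a1 the last triplet opens without one.
Col1a1: GGCcccatgGGTccttctGGTcctcgt
Col4a1: GGAgatcctGGTgaaattctcggccac

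**Figure D1:**
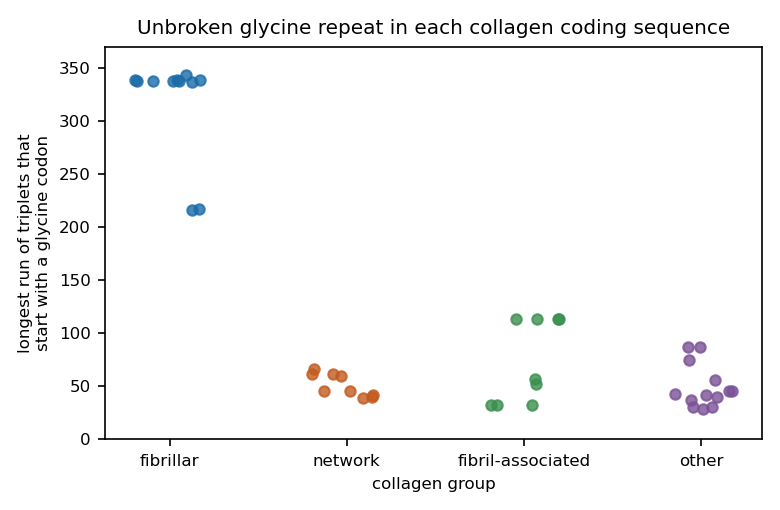
Longest unbroken run of triplets that start with a glycine codon (y axis, number of triplets) in the coding sequence of each of the 42 collagen genes (points, spread sideways at random) by group. The fibrillar genes lie at 216 to 344 triplets and all other genes at 113 or below.

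MicroRNAs such as miR-21 reduce the messages that they pair with, mostly through their seed (bases 2 to 8) and in the 3′ untranslated region (UTR) of the message. miR-29 is another microRNA, known as a repressor of collagen messages. The mature sequences of miR-21a-5p and of the 3 members of the miR-29 family are shown because these seeds were searched for in the collagen messages. They are from RefSeq (GRCm38.p6), with the seed in capitals.
miR-21a-5p: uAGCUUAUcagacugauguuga
miR-29a-3p: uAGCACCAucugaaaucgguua
miR-29b-3p: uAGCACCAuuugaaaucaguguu
miR-29c-3p: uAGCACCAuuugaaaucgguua
The 3 members of the miR-29 family share 1 seed, which differs from that of miR-21. The match to the miR-21 seed, ATAAGCT, occurred in the 3′ UTR of 1 of the 41 collagen genes with an annotated 3′ UTR, or 2.44%. Among the 12987 tested genes of the whole table with a 3′ UTR it occurred in 7.31%. The match to the miR-29 seed, TGGTGCT, occurred in 23 of the 41 collagen genes, or 56.1%, against 14.6% of the tested genes. The median 3′ UTR was 971 bases in the collagens and 1050 bases in the tested genes. In the 38 tested collagens with a 3′ UTR, the like set, the shares were 2.63% for miR-21 and 60.5% for miR-29. Their median 3′ UTR was 1029 bases. A match is a description of the letters and not a shown binding site.

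The collagen with a miR-21 seed match was Col12a1, a long fibril-associated collagen. Its site lies at chr9:79600872-79600878 (mm10, minus strand), in the 3′ UTR, and is followed by an A, the longer form of the match. It is shown with the miR-29 matches of the most abundant fibrillar and network collagens, at chr11:94952538-94952544 (Col1a1, plus strand), chr1:45348982-45348988 (Col3a1, plus strand) and chr8:11199762-11199768 (Col4a1, minus strand). For Col4a5, which holds 3 matches, the first is shown, at chrX:141688253-141688259 (plus strand). Capitals mark the seed match.
Col12a1, miR-21: ggcgcctaATAAGCTactaacc
Col1a1, miR-29: ggaatttcTGGTGCTatagaag
Col3a1, miR-29: tgtctcaaTGGTGCTataataa
Col4a1, miR-29: tcacaacaTGGTGCTactcccc
Col4a5, miR-29: cccaccaaTGGTGCTaatatcc
Col4a3 and Col5a1 held the most miR-29 matches, 4 each, and Col5a3 and Col4a5 held 3. Col1a2, Col6a1 and Col18a1, among the 10 most abundant collagens per length, had no match in the transcript searched.

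Several facts of the libraries bear on what follows. The total estimated count ranged from 37787465 in knockout 1 to 154384307 in WT 3. The level of miR-21 itself was not analysed here, so the genotype labels were not checked on the targeted gene. Smooth muscle markers were high in every library, with Acta2, the smooth muscle actin gene, at 9861 to 15772 CPM and the 8 markers summed to 23180 to 36198 CPM (counts per 1e+06, TMM-scaled). Of 8 endothelial markers, 6 were below 3 CPM in every library, Vwf reached 5.33 CPM and Pecam1 lay at 52.9 to 63.6 CPM. The summed level of 8 macrophage markers was 3.805 to 23.4 CPM, and that of 6 lymphocyte markers was 0.0245 to 0.501 CPM. The 2 adipocyte markers measured summed to 37.4 to 53.2 CPM, nearly all from Fabp4, the 3 mesothelial markers to 0 to 2.602 CPM, and the 4 cardiac markers to 16.9 to 42.1 CPM. The adventitial fibroblast markers were 13 genes, with Lum and Dcn, 2 proteoglycan genes, and Gsn the most abundant. In WT 1, 2 and 3 they summed to 7945, 4362 and 7724 CPM. In knockout 1, 2 and 3 the sums were 6806, 2716 and 3064 CPM. Knockout 1 thus lay with WT 1 and WT 3 for these markers, and WT 2 lay between them and the other knockouts. Cartilage collagens, grouped after their values were seen, set knockout 1 apart from all other libraries. The main results below are therefore also given without it.

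The collagens took a large share of each library. All 42 genes together held 2.505%, 1.94% and 2.27% of the estimated counts in WT 1, 2 and 3. In knockout 1, 2 and 3 they held 2.59%, 1.72% and 1.94%. Their means (± SD, n = 3 each) were 2.24% ± 0.285 for WT and 2.08% ± 0.452 for the knockout, with overlap between the groups. The difference of log2 shares, knockout minus WT, was -0.12, with a two-sided exact permutation p of 0.8 (3 samples against 3 cannot go below 0.1). Without knockout 1 the difference was -0.285. Fibrillar collagens took 63.8%, 55.4% and 61.8% of the collagen counts in WT and 63.6%, 49.5% and 50.2% in the knockout. Network collagens took 14.96%, 15.3% and 13.9% of them in WT and 13.9%, 18.9% and 19.5% in the knockout. Knockout 2 and 3 therefore had the lowest fibrillar and the highest network shares, while knockout 1 lay within the WT range for both.

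**Figure D2:**
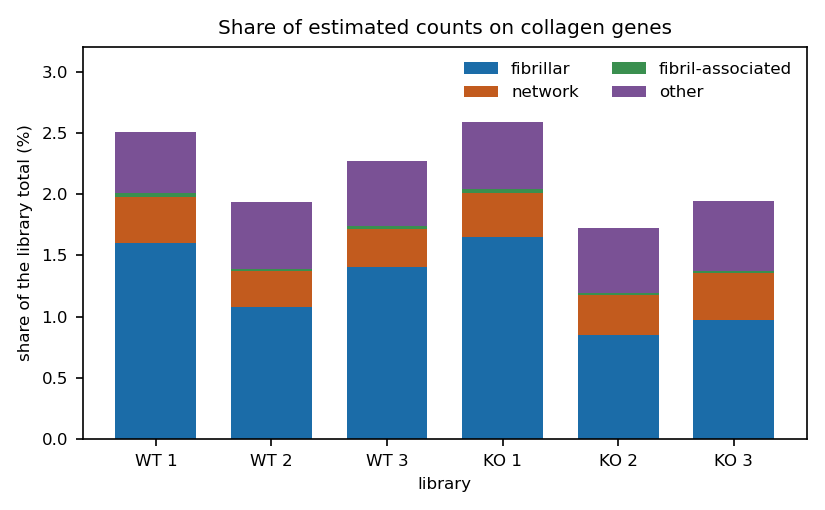
Share of the library total held by the collagen genes (y axis, percent of estimated counts) in each of the 6 libraries, stacked by group. The total runs from 1.72% in knockout 2 to 2.59% in knockout 1, and the height of the fibrillar part varies most.

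Per length, Col3a1 was the most abundant collagen. Its mean level was 567 ± 165 CPM per kb of annotated exon (SD over the 6 libraries). Col18a1, a basement membrane collagen whose end fragment is endostatin, followed at 417 ± 51.4 CPM per kb, Col1a1 at 379 ± 122, Col1a2 at 251 ± 53.1 and Col4a1 at 207 ± 27.7. Next came Col6a1 at 176 ± 20.5, Col4a2 at 156 ± 16.9, Col6a2 at 106 ± 6.04, Col5a1 at 61.7 ± 5.79 and Col5a2 at 58.5 ± 14.5 CPM per kb. Col3a1 and Col18a1, Col18a1 and Col1a1, Col1a2 and Col4a1, and Col5a1 and Col5a2 are neighbours in this order that differed by less than the larger of their SDs. With the length of the principal transcript in place of all annotated exon, 9 of these 10 stayed among the first 10. Col6a3 then took the place of Col5a1, and Col1a2 stood above Col1a1. The 10 genes held 90.0% of the summed collagen level per kb, while 14 of the 39 genes tested were below 1 CPM per kb. The genes not tested with all libraries were Col17a1, Col25a1 and Col28a1, which had too few counts. Col17a1, a collagen of epithelial anchoring, had 0 to 4 counts per library, Col28a1 had 2 to 26 and Col25a1 had 0 to 82, with WT 3, the deepest library, at 82.

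No collagen gene passed the threshold over all genes in the comparison of knockout with WT. In the quasi-likelihood test of edgeR, 0 of the 39 collagens tested were below an adjusted p (Benjamini-Hochberg) of 0.05, and the share called over all 16654 genes was 0%. The Wald test of DESeq2 called 73 genes over the whole table, and it and limma called 0 collagens. DESeq2 gave no adjusted p for some collagens, Col2a1, Col9a1, Col9a2 and Col11a1 among them, so it could not call these. At an unadjusted edgeR p under 0.05, 2 collagens had higher levels with the knockout and 0 had lower ones, against 3.95% and 2.01% of all genes. The 39 log2 fold changes, knockout over WT, had a median of 0.13, against -0.0022 over all genes tested, and 25 of 39 were above 0, against 49.4% of all genes. Those values rest on knockout 1. Without it 11 of 40 collagens were above 0 and the median was -0.40, against -0.0062 for all genes.

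Without knockout 1, 14 of 40 collagens were lower in the remaining knockouts at an unadjusted edgeR p under 0.05, where 5.57% of all genes were lower, and 1, Col19a1, was higher, where 4.48% were. Again 0 collagens passed the adjusted threshold (smallest adjusted p = 0.291, for Col11a1), and 1 gene did so over the whole table (0.00583%). The lower genes at this unadjusted level were 8 of 11 fibrillar, 0 of 9 network, 4 of 9 fibril-associated and 2 of 11 other collagens. The 2 other collagens were Col6a1 and Col25a1. Col25a1 was not tested with all libraries. It had 5, 17 and 82 counts in WT and 0 and 5 in knockout 2 and 3. It passed the low-count filter here only through its WT counts, so its place among the lower genes carries no weight. Of these 14 genes, 6 are cartilage collagens (Col2a1, Col9a1, Col9a2, Col9a3, Col11a1 and Col11a2), whose high levels set knockout 1 apart. Leaving out the 7 cartilage collagens, 8 of 33 were lower, Col25a1 among them, and the median was -0.20. These counts are not like for like with the share over all genes. Knockout 1 was set aside after its cartilage values were seen. It was the highest library for 25 of the 39 collagens tested, against 15.2% of all genes. Leaving it out lowers the knockout values of such genes. With any other library left out, 0 or 1 collagens were lower at this unadjusted level. Without knockout 1 the adventitial fibroblast markers had a median log2 fold change of -0.64, and -0.26 with all libraries. Their part in the lower fibrillar values was not tested.

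**Figure D3:**
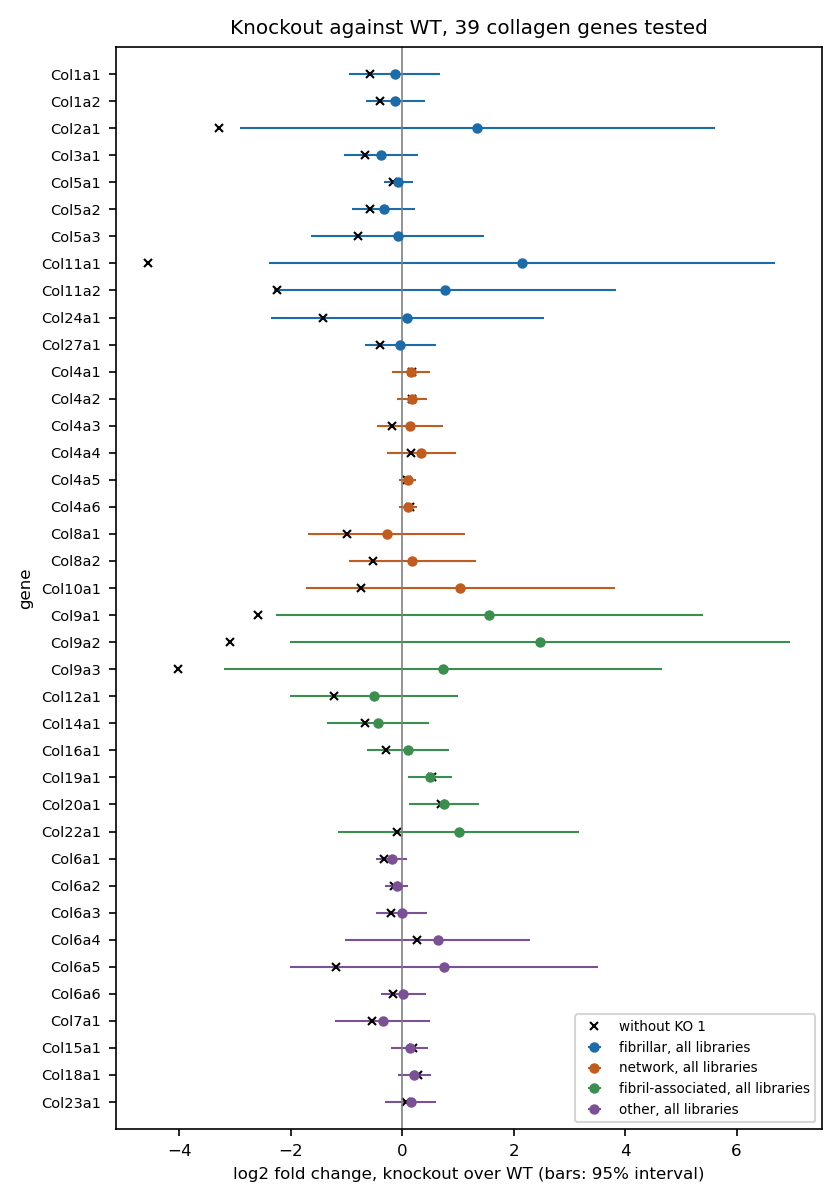
Log2 fold change, knockout over WT (x axis), of the 39 collagen genes tested, coloured by group, with 95% intervals from edgeR (bars). Crosses give the value without knockout 1, which lie far to the left for Col2a1, Col9a1, Col9a2, Col9a3 and Col11a1 and close to the points for Col4a1, Col4a2 and Col18a1.

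Among the fibrillar collagens, Col1a1 and Col1a2 encode the chains of type 1 collagen, the main tensile fibre. Col1a1 (ENSMUSG00000001506.10, mm10 chromosome 11, 94936224 to 94953043) had 3033, 1876 and 2899 CPM in WT 1, 2 and 3. In knockout 1, 2 and 3 it had 3608, 1637 and 1856 CPM. Knockout 1 was the highest of all libraries, and WT 2 lay beside knockout 2 and 3. The log2 fold change was -0.14 ± 0.34 (SE; 95% interval -0.95 to 0.68; edgeR adjusted p = 0.963). Without knockout 1 it was -0.58 (adjusted p = 0.488). Col1a2 showed the same order of libraries at the top, with 3646, 2713 and 3413 CPM in WT and 4023, 2497 and 2452 CPM in the knockout, and a log2 fold change of -0.12 ± 0.23 (SE). Without knockout 1 that of Col1a2 was -0.40.

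Col3a1 encodes the single chain of type 3 collagen, which gives the arterial wall its pliable fibres (chromosome 1, 45311538 to 45349707). It had 7882, 4653 and 6396 CPM in WT and 6482, 3505 and 4493 CPM in knockout 1, 2 and 3. WT 1 was highest, and knockout 1 exceeded WT 3. The log2 fold change was -0.39 ± 0.28 (SE; 95% interval -1.05 to 0.27; edgeR adjusted p = 0.866), and -0.66 without knockout 1. Col5a2 lies tail to tail with Col3a1 on the same chromosome, 24614 bases away, and encodes a chain of type 5 collagen, which starts and limits fibril growth. Its levels were 745, 499 and 635 CPM in WT and 651, 369 and 470 CPM in the knockout, the same order of libraries as for Col3a1. The other main chain of type 5, Col5a1, varied less, with 569, 488 and 553 CPM in WT and 578, 458 and 499.5 CPM in the knockout. Col5a3 was low, at 6.01 to 27.1 CPM.

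Ratios between chains of 1 trimer, or of neighbouring types, do not depend on library scaling. Col1a1 over Col1a2 was 0.832, 0.692 and 0.849 in WT against 0.897, 0.656 and 0.757 in the knockout. Col3a1 over Col1a1 was 2.598, 2.48 and 2.21 in WT against 1.797, 2.14 and 2.42 in the knockout, lowest in knockout 1. Col5a1 over Col5a2 was 0.764, 0.977 and 0.871 in WT against 0.888, 1.24 and 1.06 in the knockout. Col6a1 over Col6a2 was 0.953, 0.845 and 0.924 in WT against 0.932, 0.801 and 0.813 in the knockout. The groups overlapped in these ratios. Two-sided exact permutation p-values over 5 ratios, that of Col4a1 over Col4a2 included, ran from 0.2 to 1 and adjusted values from 0.5 to 1, with 0.1 the smallest p possible.

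The type 4 collagens of the basement membrane are arranged in pairs that start head to head: Col4a1 and Col4a2 overlap by 22 bases at their starts on chromosome 8, Col4a4 and Col4a3 stand 71 bases apart on chromosome 1, and Col4a6 and Col4a5 stand 1308 bases apart on X. Col4a1 had 1757, 1284 and 1350 CPM in WT and 1595, 1516 and 1790.2 CPM in the knockout. Col4a2 had 1076, 883 and 952 CPM in WT and 1067, 1001 and 1204 CPM in the knockout. For both, WT 2 was lowest, knockout 3 was highest and the groups overlapped. Their log2 fold changes were 0.16 ± 0.14 and 0.17 ± 0.12 (SE). Col4a1 over Col4a2 was 1.63, 1.46 and 1.42 in WT against 1.49, 1.51 and 1.49 in the knockout.

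Col4a5 and Col4a6, a pair on the X chromosome whose chains form a network in smooth muscle basement membranes, had the smallest ratio of highest to lowest library among the collagens tested, 1.09 and 1.13. Col4a5 (chromosome X, 141475385 to 141689235) had 325, 335 and 324 CPM in WT and 351, 349 and 352 CPM in the knockout. Col4a6 had 266.5, 255 and 263 CPM in WT and 269, 289.8 and 285 CPM in the knockout. For both genes the lowest knockout library exceeded the highest WT library, by little. The log2 fold change was 0.10 ± 0.06 (SE; 95% interval -0.05 to 0.25) for Col4a5 and 0.10 ± 0.07 (SE) for Col4a6, and the edgeR adjusted p was 0.864 for both. Of the 39 collagens tested, 4 had every knockout library above every WT library, where 6.48% of all genes did, and 0 had every one below, where 5.6% did. The others of the 4 were Col19a1 and Col20a1. Col4a3 and Col4a4, the pair known from kidney basement membrane, were low at 11.5 to 21.9 and 5.77 to 10.99 CPM, with knockout 1 highest and the groups overlapping.

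The remaining network collagens are of types 8 and 10. Col8a1, a short-chain collagen made by smooth muscle and endothelium after injury, had 301, 119 and 246 CPM in WT and 325, 76.8 and 146 CPM in the knockout. Knockout 1, WT 1 and WT 3 were highest, as for Col1a1. Col8a2, its partner chain, lay at 1.36 to 5.01 CPM.

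Among the fibril-associated collagens, Col14a1 was the most abundant per length, with 194, 70.2 and 131 CPM in WT and 126, 85.0 and 81.8 CPM in the knockout. Col12a1, the gene with the miR-21 seed match printed above, had 45.5, 14.1 and 28.3 CPM in WT. In knockout 1, 2 and 3 it had 37.2, 8.77 and 16.2 CPM, so no knockout library exceeded WT 1 and knockout 1 alone exceeded WT 3. The log2 fold change of Col12a1 was -0.51 ± 0.62 (SE; edgeR adjusted p = 0.919). Without knockout 1 it was -1.23 (edgeR unadjusted p = 0.04999, adjusted p = 0.497), at the very edge of the unadjusted threshold. Col16a1 lay at 40.1 to 86.0 CPM.

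Col19a1 and Col20a1 were the collagens with an unadjusted p under 0.05. Col19a1, a rare collagen of basement membrane zones (chromosome 1, 24261890 to 24587473), had 9.41, 14.4 and 11.7 CPM in WT and 15.8, 15.5 and 18.9 CPM in the knockout. In edgeR the log2 fold change was 0.50 ± 0.17 (SE; 95% interval 0.11 to 0.89; unadjusted p = 0.0192, adjusted p = 0.793). Without knockout 1 it was 0.54. Col20a1 rested on 17 to 97 counts per library and had 0.554, 0.417 and 0.630 CPM in WT and 0.965, 0.847 and 0.904 CPM in the knockout. Its log2 fold change was 0.74 ± 0.27 (SE; edgeR unadjusted p = 0.0268, adjusted p = 0.807), and 0.69 without knockout 1. In neither gene did the groups overlap.

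The other collagens included the type 6 genes, whose chains form beaded filaments next to cells, and the multiplexins Col15a1 and Col18a1 of the basement membrane zone. Col6a1 (chromosome 10, 76708792 to 76726169) had 848, 790.1 and 835 CPM in WT and 843, 672 and 649 CPM in the knockout. Knockout 1 lay within the WT range and knockout 2 and 3 below it. The log2 fold change was -0.19 ± 0.12 (SE; edgeR adjusted p = 0.862) and -0.32 without knockout 1 (adjusted p = 0.469). Col6a2 had 890, 936 and 904 CPM in WT and 905, 839 and 799 CPM in the knockout, with the same libraries lowest, and Col6a3 had 693, 507 and 662 CPM in WT and 763, 484 and 601 CPM in the knockout. Col6a4, Col6a5 and Col6a6 stayed below 8 CPM.

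Col18a1 had 2427, 2979 and 2709 CPM in WT and 2880.5, 3061 and 3501 CPM in the knockout (chromosome 10, 77052178 to 77166549). WT 2 exceeded knockout 1, and the other WT libraries lay below all knockouts. The log2 fold change was 0.22 ± 0.13 (SE; 95% interval -0.08 to 0.52; edgeR adjusted p = 0.859). Col15a1 had 138.5, 193 and 185 CPM in WT and 173, 207 and 186 CPM in the knockout, lowest in WT 1. Col23a1, a transmembrane collagen, lay at 3.83 to 6.03 CPM, and Col7a1, the anchoring fibril collagen of skin, at 0.209 to 0.448 CPM.

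**Figure D4:**
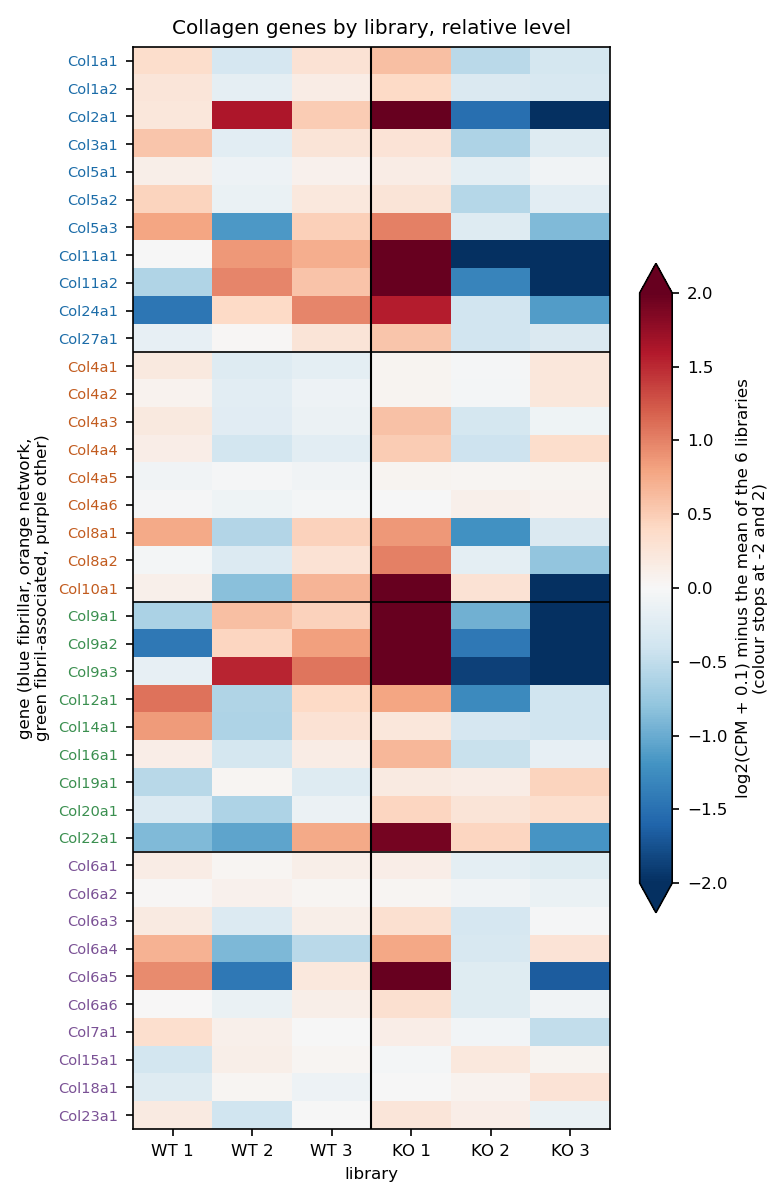
Level of the 39 tested collagen genes (rows, by group) in the 6 libraries (columns), as log2 of CPM plus 0.1 minus the gene's mean over the libraries. Colour stops at -2 and 2. The cartilage genes Col2a1, Col9a1, Col9a2, Col9a3, Col10a1, Col11a1 and Col11a2 are highest in KO 1 and lowest in KO 3, while Col4a5 and Col4a6 stay near 0.

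The collagens of cartilage differed most between libraries, with knockout 1 highest and the groups overlapping. Knockout 2 and 3 lay below every WT library for these genes except Col10a1, by little for Col9a2. These 7 genes were grouped after their values were seen, so no test of the set is given. Col2a1, the main fibrillar collagen of cartilage (chromosome 15, 97975602 to 98004696), had 101, 266 and 124 CPM in WT 1, 2 and 3. In knockout 1, 2 and 3 it had 1217, 30.5 and 3.43 CPM, so that the knockout group held both the highest and the lowest library, 354-fold apart. Its edgeR log2 fold change was 1.35 ± 1.75 (SE; 95% interval -2.91 to 5.603; adjusted p = 0.923) and turned to -3.29 without knockout 1 (adjusted p = 0.469). Col11a2, a chain of the minor fibrillar collagen of cartilage, had 5.77, 17.4 and 13.1 CPM in WT and 57.2, 3.46 and 1.72 CPM in the knockout. Col11a1, its partner, had 1.29, 2.45 and 2.21 CPM in WT and 26.6, 0.160 and 0.0278 CPM in the knockout, the last from 2 counts.

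The type 9 genes encode the fibril-associated collagen that coats type 2 fibrils. Col9a3 had 2.03, 6.73 and 4.92 CPM in WT and 22.5, 0.549 and 0.0695 CPM in the knockout. Col9a1 and Col9a2 had the same libraries highest and lowest, with 250 and 513 counts in knockout 1 and 1 and 2 counts in knockout 3. Col10a1, the collagen of hypertrophic chondrocytes, had 2.61, 1.33 and 3.93 CPM in WT and 13.4, 3.00 and 0.306 CPM in the knockout. Without knockout 1 the log2 fold changes of these genes turned from positive to negative, to -2.58 for Col9a1, -3.098 for Col9a2, -4.03 for Col9a3, -0.73 for Col10a1, -4.57 for Col11a1 and -2.25 for Col11a2. Their edgeR adjusted p-values there ran from 0.291 to 0.813.

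Other chondrocyte markers were measured in the same libraries, from a list of 8 genes that summed to 134 to 456 CPM. The sum was highest in WT 3 at 456 CPM, with 443 CPM in knockout 1. Cnmd, which encodes chondromodulin, had 0.237, 3.51 and 2.598 CPM in WT and 11.96, 0.366 and 0.0139 CPM in the knockout, in nearly the library order of Col2a1. Acan, the cartilage proteoglycan aggrecan, had 31.8, 62.4 and 59.9 CPM in WT and 116, 49.4 and 25.9 CPM in the knockout. Chad, chondroadherin, was highest in WT 3 at 214 CPM and lowest in knockout 3 at 0.139 CPM, with 136 CPM in knockout 1. Sox9, the chondrocyte transcription factor, stayed within 94.4 to 160 CPM. The cartilage matrilins were near 0, with Matn1 at 0 in 4 libraries and at most 0.247 CPM, and Matn3 at most 0.188 CPM. Where the cartilage messages came from was not tested.

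**Figure D5:**
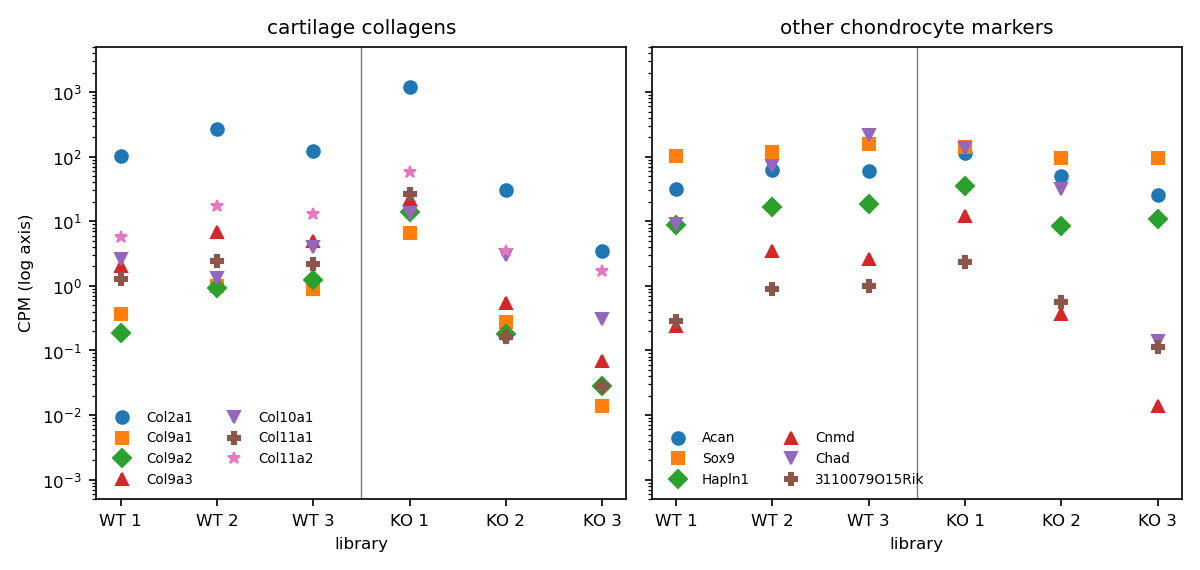
CPM on a log axis of 7 cartilage collagens (left) and 6 other chondrocyte markers (right; 3110079O15Rik is an older symbol of Snorc) in each library. The collagens peak in KO 1, with Col2a1 at 1217 CPM, and are lowest in KO 3, while Sox9 and Hapln1 vary far less.

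Knockout 1 was the highest of the 6 libraries for 25 of the 39 collagens tested, where it was highest for 15.2% of all genes. WT 1, WT 3 and knockout 1 were the 3 highest libraries for 15 of the 39, where 13.1% of all genes had that order. By group these were 6 of 11 fibrillar, 2 of 9 network, 3 of 9 fibril-associated and 4 of 10 other collagens. The summed fibroblast markers given above were also highest in these 3 libraries, where most of the sum came from Lum and Dcn. Gsn, Mfap5, Pi16 and Dpp4 of that list were not highest there. Of the 39, 9 differed 10-fold or more between their highest and lowest library, where 1.48% of all genes did, and 7 of these 9 are the cartilage genes. Col6a5 and Col24a1 are the others.

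Genes that make, process and bind collagen were read from lists of other genes of the pathway. Of 21 biosynthesis enzymes and chaperones, 0 passed the edgeR threshold and 0 had an unadjusted p under 0.05. Log2 fold changes were above 0 for 5 of them, against 49.4% of all genes. Their median was -0.07, against -0.0022 over all genes. Without knockout 1, 3 were lower and 1 higher at an unadjusted p under 0.05, where 5.57% and 4.48% of all genes were. The median was then -0.11. Knockout 1 was the highest library for 5 of the 21, against 15.2% of all genes, so these counts too are not like for like with those shares. The smallest p-values were those of Fkbp10, a collagen chaperone, at -0.26 ± 0.12, P3h2, a prolyl hydroxylase of basement membrane collagen, at 0.28 ± 0.15, and Plod1, a lysyl hydroxylase, at -0.11 ± 0.07 (log2 fold change ± SE; edgeR adjusted p = 0.841, 0.859 and 0.863). With 1 library left out Fkbp10 ran from -0.39 (without knockout 1) to -0.16 (without knockout 2), P3h2 from 0.18 to 0.39 and Plod1 from -0.18 to -0.061.

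Of 12 genes of propeptide cleavage and cross-linking, 1 had a log2 fold change above 0, against 49.4% of all genes. The median was -0.28, and 0 passed or had an unadjusted p under 0.05. Without knockout 1, 3 were lower at that level, where 5.57% of all genes were, and the median was -0.43. Loxl4, a lysyl oxidase, had -0.39 ± 0.21, Adamts14, a procollagen protease, 0.30 ± 0.17, and Adamts2, the main protease of the amino propeptide, -0.34 ± 0.21 (log2 fold change ± SE). Without WT 1, Loxl4 was at -0.14 and Adamts2 at -0.13, and without WT 3, Adamts14 was at 0.14. WT 1 was the highest library for 10 of the 12, where it was highest for 22.7% of all genes.

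Of 9 collagen receptors tested, 4 had log2 fold changes above 0, against 49.4% of all genes, and 0 passed or had an unadjusted p under 0.05. Their median was -0.04, and without knockout 1 it was -0.28, with 1 lower at that level, where 5.57% of all genes were. Adgrg1, an adhesion receptor for type 3 collagen, had -0.29 ± 0.21, Itga2, a collagen-binding integrin chain, -0.84 ± 0.62, and Ddr2, a receptor kinase for fibrillar collagen, 0.08 ± 0.07 (log2 fold change ± SE). Without WT 1, Adgrg1 was at -0.070 and Itga2 at -0.24, and without knockout 2, Ddr2 was at 0.041. Of 18 matrix proteins that bind collagen fibrils or networks, 5 were above 0, against 49.4% of all genes. Pcolce is also in the list of propeptide cleavage, and Dcn, Lum and Dpt are also among the fibroblast markers. The values of these lists are therefore not independent. Of the 18, 0 passed the edgeR threshold and 1 was higher at an unadjusted p under 0.05, where 3.95% of all genes were. Their median was -0.10. Without knockout 1, 6 were lower and 2 higher at that level, where 5.57% and 4.48% of all genes were. The median was then -0.43. Knockout 1 was the highest library for 7 of the 18, against 15.2% of all genes, so these counts are not like for like with those shares. The gene that was higher with all libraries was Hspg2, which encodes perlecan, the heparan sulfate proteoglycan of basement membranes. It had 461, 495 and 450 CPM in WT and 618, 561 and 632 CPM in the knockout, and the groups did not overlap. The log2 fold change of 0.37 ± 0.08 (SE) had an adjusted p of 0.735 in edgeR and of 0.00719 in DESeq2. Comp, a pentameric matrix protein of cartilage and modulated smooth muscle, had -0.99 ± 0.50, and Tnxb, tenascin X, 0.18 ± 0.11 (log2 fold change ± SE). Without WT 3, Comp was at -0.44, and without knockout 2, Tnxb was at 0.0796.

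The 23 collagens with a miR-29 seed match had a median log2 fold change of 0.10, and 13 were above 0. The 15 tested collagens with a 3′ UTR and no match had a median of 0.22, and 11 were above 0. Over all genes tested 49.4% were above 0. Without knockout 1 the medians were -0.30 and -0.46.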

How the data were processed

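The authors deposited 1 table of expected counts (estimated counts per gene, not normalized) for 6 samples. The submitters' processing notes list mm10, STAR 2.6 and DESeq2 without saying what each did. For the counting tool and the gene annotation, the sources used here give no name. Estimated counts share reads among similar or overlapping genes. Counts were rounded. Library totals of 37787465 to 154384307 set the counting precision. Every column of values belonged to a labelled sample.

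Genes kept by filterByExpr (16654) were TMM-scaled and tested with the robust quasi-likelihood test of edgeR 4.0.16 (R 4.3.3), knockout against WT, two-sided, with Benjamini-Hochberg adjustment over all genes and a threshold of 0.05. On simulated data the test found most of the large changes but missed most of the smallest ones, and its share of false calls was above the threshold. Alternatives used DESeq2 1.42.0, limma 3.58.1, other scalings and filters, an FDR of 0.1, the replicate number as a block and each library left out. Ratios and shares had exact permutation tests over samples.

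All 42 collagens matched GENCODE M21 (GRCm38, the assembly of mm10) by symbol and chromosome, with the same start and an end 1 lower than in the table, whose coordinates are printed. Lengths are the union of annotated exons. UTRs and coding sequences are those of the principal APPRIS transcript.

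The members and lists were chosen with earlier results of these data known. Members given in full are the 10 most abundant per kb, the 6 with the smallest p, and those in the 5 ratios, with the cartilage collagens, Col6a3, Col8a1, Col12a1, Col14a1 and Col15a1 added after their values were seen. Each pathway list gave its 3 smallest p. Figures used matplotlib 3.10.9. One of the marker lists is not reported here.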

Additional observations from a re-analysis of the deposited data

How the results depend on the processing

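The count of collagens called was 0 in every alternative run, though DESeq2 gave no adjusted p for some, Col2a1, Col9a1, Col9a2 and Col11a1 among them. Over all genes the count was 0, except for 73 in DESeq2, 1 with the replicate number as a block, and 0 to 1 with 1 library left out. The median collagen log2 fold change was -0.27 in limma-voom with sample weights, -0.072 with the replicate block, and -0.40 (without knockout 1) to 0.17 with 1 library left out. In limma-voom Col2a1, Col9a1, Col9a2, Col9a3, Col10a1, Col11a1 and Col11a2 turned to -3.24, -2.90, -2.62, -3.83, -1.65, -3.69 and -1.80. With the replicate block Col2a1, Col9a1, Col9a2, Col9a3, Col11a1 and Col11a2 turned to -2.33, -0.63, -0.51, -1.95, -1.27 and -0.94. The cause was not tested. With 1 library left out Col2a1 ran from -3.29 to 1.93, Col9a1 from -2.58 to 2.17, Col9a2 from -3.10 to 3.07, Col9a3 from -4.03 to 1.33, Col10a1 from -0.73 to 1.61, Col11a1 from -4.57 to 2.74 and Col11a2 from -2.25 to 1.32. Each low end is the value without knockout 1. Col1a1 ran from -0.58 to 0.069, Col1a2 from -0.40 to 0.0013 and Col5a1 from -0.17 to 0.0053. The difference in collagen share ran from -0.285 to 0.0105, that in Col1a1 over Col1a2 from -0.161 to 0.065 and that in Col4a1 over Col4a2 from -0.041 to 0.061.

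Same-numbered libraries correlated at 0.289, 0.317 and -0.0263 in their deviations from the group means, and WT 3 correlated best with knockout 1 (0.0658). Deviations from a mean of 3 libraries depend on each other, so these values cannot decide whether the numbers pair the samples. The main test did not take them to do so. The genes under 1 CPM per kb rest on few counts.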
